A study of Mus musculus with 5 samples.

Results

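The genes described are 10 members of the matrix metalloproteinase system in mouse growth plate cartilage, out of 29818 genes listed for the series. They are the collagenase Mmp13, the gelatinases Mmp9 and Mmp2, the membrane-bound proteases Mmp14 and Mmp16, the stromelysin Mmp3, the aggrecanase Adamts5 and the inhibitors Timp1, Timp2 and Timp3. They were picked by name, with earlier results of these data known. Mmp13 and Mmp9 were known to be higher over all cells in the mutant libraries before the list was drawn up, so their difference between genotypes is given here as a description with no test, and the question was which cells carried it.

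Matrix metalloproteinases are zinc enzymes that cut collagens and other matrix proteins outside the cell, and are held in check by the tissue inhibitors of metalloproteinases (TIMPs). At the lower edge of the growth plate, collagenase from terminal hypertrophic chondrocytes and osteoblasts and gelatinase from osteoclasts help to open mineralized cartilage to vessels and bone cells. Aggrecanases of the ADAMTS family remove the proteoglycan aggrecan from the same matrix.

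The 5 littermate pups, labelled C57BL/6J, gave 1 BD Rhapsody single-cell library each, from proximal tibia and distal femur epiphyses freed of soft tissue by collagenase. The labels give pups 1 and 2 as wild type (WT) and pups 3, 4 and 5 as mutant, the mutants being heterozygous for a conditional Trpv4 p.R594H knock-in allele switched on by a Col2a1-Cre transgene. The knock-in was made on C57BL/6J, and the Cre line on a B6SJL cross later bred to C57BL/6J, so the pups' background may be mixed. Trpv4 encodes a calcium-permeable cation channel. The labels give postnatal day 5 and the design text postnatal day 3, and the difference was not resolved here. The Col2a1 promoter drives Cre in chondrocytes and their precursors, so blood-derived cells in a mutant pup are not targeted by it. UMI sums per gene cannot show the R594H change, so the genotype labels were not checked from the data. Chondrocyte RNA was abundant in every library, with Col2a1 at 47831 to 77206 UMIs per 1000000 (CPM) and Acan at 3033 to 4255 CPM.

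Each library held 14003 to 19589 barcodes and 117746735 to 183322632 UMIs. The study's limits on genes per cell and on mitochondrial UMIs left 82516 cells, with a median of 8521 to 9261 UMIs a cell in WT pups and 6000 to 7016 in mutant pups. Any 2 libraries shared 3 to 7 barcodes. Mutant pups 3 and 4 stood apart from the other 3 libraries in Xist, at 647 and 632 CPM against at most 0.223 CPM, and in the Y-linked Ddx3y, at under 1 CPM against 167 to 201 CPM. That is the pattern of 2 female and 3 male pups, the labels give no sex, and both WT pups are on the male side, so sex and genotype cannot be told apart in full. Values without pups 3 and 4 are given where they change a result. Cells were clustered without the 10 members and named from fixed markers, and each name below ends in "-like" for that reason.

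The promoter of Mmp13 is shown because of the 10 genes it had the largest ratio between genotypes. Beside it are those of Mmp3 and Mmp10, neighbours that also held a motif match. The promoter of another neighbour, Mmp8, held neither motif, and those of the further Mmp genes nearby were not searched. Of the 10 members, 6 had a RefSeq promoter to read (GRCm38.p6). Mmp13 lies on chromosome 9 at 7272514-7283331, plus strand, and Mmp3 close by at 7445822-7455975. The 250 bases before the start of Mmp13, Mmp3 and their neighbour Mmp10, all on the plus strand, are printed 5′ to 3′ with matches to the AP-1 motif TGANTCA and to the RUNX motif TGTGGTT (either strand, with no overlap between them) in capitals.
Mmp13 promoter, chr9:7272264-7272513: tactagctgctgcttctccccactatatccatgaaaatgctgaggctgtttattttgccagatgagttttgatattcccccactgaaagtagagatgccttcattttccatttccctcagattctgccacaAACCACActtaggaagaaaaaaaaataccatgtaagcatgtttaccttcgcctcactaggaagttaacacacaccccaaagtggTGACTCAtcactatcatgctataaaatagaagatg
Mmp3 promoter, chr9:7445572-7445821: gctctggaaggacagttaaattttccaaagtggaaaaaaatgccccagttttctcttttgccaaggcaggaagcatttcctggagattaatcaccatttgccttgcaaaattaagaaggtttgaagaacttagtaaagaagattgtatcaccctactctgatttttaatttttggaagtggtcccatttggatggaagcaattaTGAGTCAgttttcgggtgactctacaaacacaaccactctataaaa
Mmp10 promoter, chr9:7502092-7502341: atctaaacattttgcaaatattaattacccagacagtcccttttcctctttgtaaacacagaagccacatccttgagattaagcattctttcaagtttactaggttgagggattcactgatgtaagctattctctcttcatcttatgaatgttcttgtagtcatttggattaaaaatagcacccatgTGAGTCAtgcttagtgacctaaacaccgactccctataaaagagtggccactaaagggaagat

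The AP-1 letters began at -35 in Mmp13, -46 in Mmp3 and -63 in Mmp10, counted back from the RefSeq start that each promoter precedes, which for Mmp10 lies before the gene start of the annotation used for positions. Of all 32851 promoters of this length, 6.75% held the AP-1 letters and 4.40% the RUNX letters. Among the 6 members with a promoter, 2 held the AP-1 letters, 1 the RUNX letters, and 1, Mmp13, held both, with the RUNX letters at -119. A match is a run of letters and not a measured binding site.

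Mmp13, which cuts fibrillar collagen including the type II collagen of cartilage, was measured at 29.2 and 39.9 CPM in the WT pups and at 94.1, 61.0 and 69.1 CPM in the mutant pups. Mmp9, which cuts denatured collagen, lies on chromosome 2 at 164940780-164955850, plus strand, and was at 21.2 and 21.5 CPM in WT and at 49.3, 32.3 and 37.3 CPM in the mutants. In both genes every mutant pup lay above both WT pups. The mean of Mmp13 was 34.6 ± 7.56 CPM in WT (SD, n = 2) and 74.7 ± 17.3 CPM in the mutants (SD, n = 3), a 2.16-fold ratio. For Mmp9 the means were 21.4 ± 0.225 and 39.7 ± 8.72 CPM, a 1.86-fold ratio. On the scale of trimmed mean (TMM) normalization the log2 differences were 1.21 for Mmp13 and 0.98 for Mmp9. Of all 21024 genes fitted over all cells, 3.84% had every mutant pup above both WT pups, and since this contrast chose the 2 genes nothing is read from that share.

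Very few cells carried these UMIs. Over the 5 pups Mmp13 gave 42522 UMIs in 2209 cells, 2.68% of the cells kept, and 50% of those UMIs lay in 38 cells. In WT pups 6 and 7 cells held 50% of the pup's Mmp13 UMIs, and in mutant pups 15, 6 and 7 cells did. Mmp9 was narrower still, with 23561 UMIs in 831 cells and 50% of them in 13 cells. In single pups 2, 2, 5, 3 and 2 cells held 50% of the Mmp9 UMIs. For comparison, 50% of the UMIs of Mmp14 were spread over 13737 cells. The richest single cell of each pup had 957 to 1434 Mmp13 UMIs and 774 to 1363 Mmp9 UMIs, so an all-cell CPM of either gene rests on the capture of a handful of cells.

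**Figure D1:**
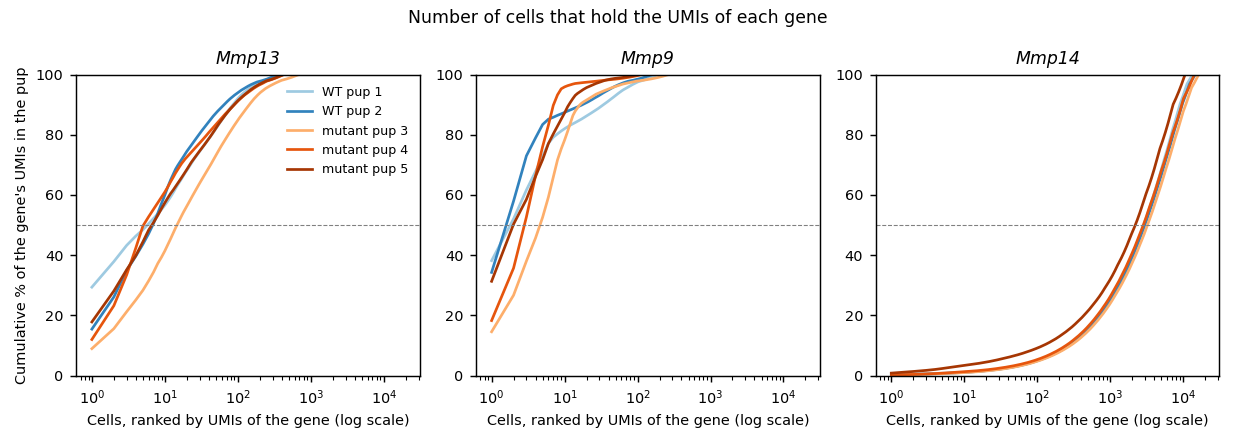
Cumulative percent of a gene's UMIs (vertical axis) against the number of cells ranked from the richest down (horizontal axis, log scale), for Mmp13, Mmp9 and Mmp14, with 1 line per pup. The Mmp13 and Mmp9 lines pass 50% within 15 cells in every pup, while 50% of the Mmp14 UMIs took 13737 cells over the 5 pups.

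The largest part of both genes came from a cluster of 41 cells. Its leading genes included Spp1 (osteopontin), Ccn5, Sstr2, Cp and Cemip. Its marker scores passed the lower limit of 0.8 for osteoblast-like (1.73) and hypertrophic-like cells (1.54), but its 10 leading genes held the hypertrophic marker Spp1 and none of the osteoblast markers, and Col10a1, which the rule requires of hypertrophic-like cells, was not among the 6 hypertrophic markers that passed the rule's limits on level and detection. It was therefore left unnamed and is called the Sstr2 Cemip cluster. It was singled out after its values were seen. The same rule named the matching cluster hypertrophic-like with no upper limit on genes (44 cells, 39 of them shared) and with up to 20% mitochondrial UMIs (57 cells, 41 shared). Its Mmp13 level was 31704 and 23663 CPM in the WT pups and 25000, 43961 and 49666 CPM in the mutant pups. Its Mmp9 level was 24652 and 29983 CPM in WT and 21357, 37214 and 48106 CPM in the mutants. For both genes mutant pup 3 fell within or below the WT pair and pups 4 and 5 lay above it, so the groups overlapped within the cluster. Per cell the median was 232 Mmp13 UMIs (range 0 to 1434) and 166 Mmp9 UMIs (range 0 to 1363), out of a median of 11692 UMIs in all.

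The cluster held 39.1% of all Mmp13 UMIs and 64.9% of all Mmp9 UMIs. By pup the Mmp13 share was 41.5% and 35.6% in WT and 43.7%, 43.1% and 28.1% in the mutants, and the Mmp9 share was 44.4% and 83.5% in WT and 71.3%, 68.8% and 50.3% in the mutants. When each pup's CPM was split into the parts given by each class, the cluster accounted for 39.3% of the mutant minus WT difference in Mmp13 and 64.0% of that in Mmp9. Its Mmp13 part was 12.1 and 14.2 CPM in WT and 41.2, 26.3 and 19.4 CPM in the mutants, and its Mmp9 part 9.42 and 18.0 CPM against 35.2, 22.2 and 18.8 CPM. Every mutant part lay above both WT parts, for Mmp9 by as little as 18.8 against 18.0 CPM. These shares of the difference moved with single pups. With pups 3 and 4 left out they were 18.1% for Mmp13 and 31.9% for Mmp9, and leaving out 1 pup at a time gave 31.8% to 47.9% and 40.9% to 86.6%. With WT replicate 1 left out the Mmp9 share was the 40.9%.

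A difference in the number of such cells could not be shown. The cluster held 4 and 6 cells in the WT pups and 22, 6 and 3 cells in the mutants, which is 0.0265% and 0.0362% of cells against 0.115%, 0.0335% and 0.0217%. Mutant pup 3 was high and the other mutants lay within or below the WT values (2-sided exact permutation test, p = 0.9, adjusted over 5 classes 1.00, the smallest possible p being 0.1). The Clopper-Pearson 95% interval, which covers counting error only, was 0.0721% to 0.174% in pup 3 and 0.00448% to 0.0635% in pup 5. Without mutant pup 3 the mean difference turned from 0.0254 to -0.0037 percentage points. With the 41 cells left out, Mmp13 was 17.1 and 25.7 CPM in WT and 53.0, 34.7 and 49.7 CPM in the mutants (2.14-fold), and Mmp9 was 11.8 and 3.56 CPM against 14.2, 10.1 and 18.6 CPM (1.86-fold). Mutant pup 4 then fell below WT pup 1 in Mmp9, so the groups overlapped in that gene, while for Mmp13 they did not.

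**Figure D2:**
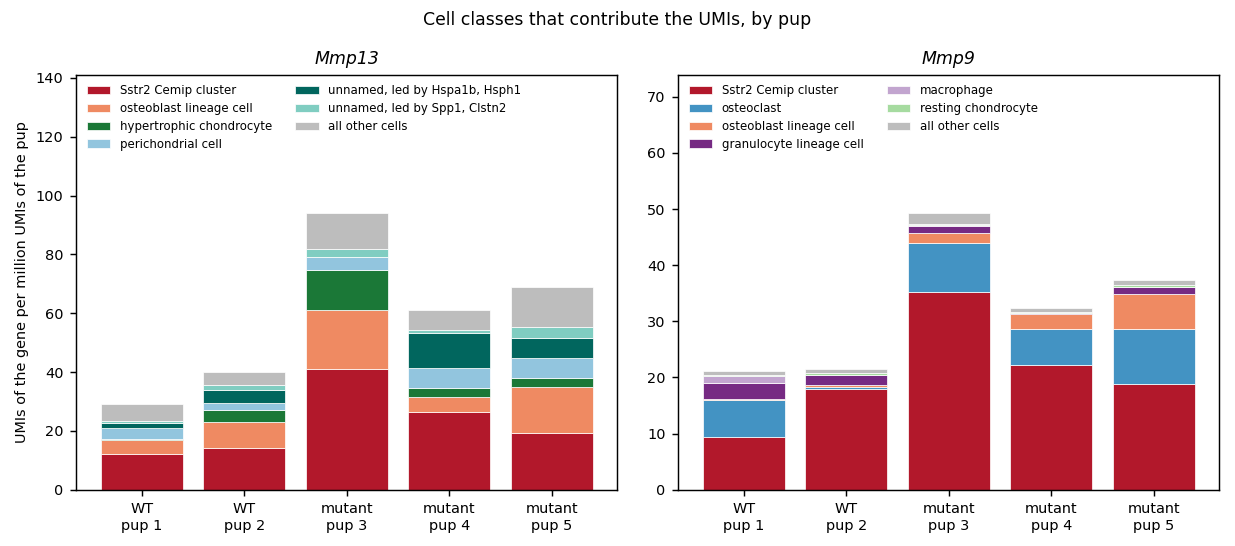
The CPM of Mmp13 and of Mmp9 in each pup (vertical axis), stacked by the class of cell that held the UMIs. The Sstr2 Cemip cluster is the largest block for Mmp9 in every pup, from 9.42 CPM in WT pup 1 to 35.2 CPM in mutant pup 3, and the rest of Mmp13 is spread over osteoblast-like and several other cells.

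Under the main settings none of the marker lists used here named the Sstr2 Cemip cluster, and cell types without a list were not compared. Among bone genes it held Spp1 at 9128 CPM, Ibsp (bone sialoprotein) at 1208, Runx2 at 713 and Alpl at 603 CPM, yet Col1a1 stood at 7564 CPM against 98128 CPM in osteoblast-like cells and Bglap (osteocalcin) at 3.65 CPM. Col10a1, which defines hypertrophic chondrocytes, stood at 12.8 CPM against 27554 CPM in hypertrophic-like chondrocytes, and Col2a1 at 474 CPM. Of 9 osteoclast markers 3 were detected, with a summed level of 248 CPM (189 to 486 CPM by pup) against 11796 CPM in osteoclast-like cells, and the defining markers Acp5, Atp6v0d2, Ocstamp, Dcstamp, Oscar and Calcr were at 0. The leukocyte gene Ptprc was at 0 as well. Of 10 osteoblast markers 9 were detected, with a sum of 10457 CPM against 104679 CPM in osteoblast-like cells. By pup that sum was 7540 and 4322 CPM in WT and 7239, 33214 and 7622 CPM in the mutants, and it was 6671 CPM without mutant pup 4, whose Col1a1 stood at 31770 CPM. Of 8 hypertrophic markers 7 were detected, with a sum of 11501 CPM against 35302 CPM, of which Spp1 made up the largest share. All 7 pericyte markers were detected, with a sum of 374 CPM (288 to 535 CPM by pup) against 17480 CPM in pericyte-like cells. The sums of the granulocyte, macrophage, endothelial and erythroid lists were 7.29 to 14.6 CPM. Tnfsf11, the ligand that drives osteoclast formation, was at 233 CPM against 33.6 CPM in osteoblast-like cells. Serpine2, an inhibitor of plasminogen activators and thrombin, was at 7036 CPM, above every named class, with pericyte-like cells next at 1732 CPM.

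Doublet scores are given beside these values. The median cell of the cluster ranked at the 78.2 to 87.7 percentile of its pup's scrublet doublet scores, and 2 of the 41 cells were among the 6% with the highest scores. Osteoclast-like cells ranked higher, and most of those (7 of 8 and 3 of 5 in WT, 8 of 13, 5 of 7 and 7 of 10 in the mutants) fell in that top 6%. With all such cells removed osteoclast-like cells held 3.72% of the Mmp9 UMIs in place of 19.2%. Whether any of these cells were doublets was not tested.

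Osteoblast-like cells (1351 cells) were next for Mmp13. Their level was 484 and 536 CPM in the WT pups and 546, 272 and 1428 CPM in the mutants, with pup 4 below both WT pups and pup 5 far above, so the groups overlapped. They held 18.7% of the Mmp13 UMIs and 16.8% of the difference between genotypes (11.7% to 23.1% with 1 pup left out). Their log2 ratio of mean mutant to mean WT level, taken here and below with 5 CPM added to each mean, was 0.55, and -0.32 without mutant pup 5. Their share of cells was 0.985% and 1.45% in WT and 2.68%, 1.73% and 1.01% in the mutants (exact permutation test, p = 0.4, adjusted p = 0.667). Mmp9 in the same cells was at 7.13 and 13.3 CPM in WT and 48.4, 135 and 575 CPM in the mutants, with no overlap. Few cells carried that, since 7 osteoblast-like cells with at least 50 Mmp9 UMIs held 84.8% of the class's 1401 UMIs, 1 in pup 3, 1 in pup 4 and 5 in pup 5. The log2 ratio, again with 5 CPM added, was 4.08, and was 0.51 at clustering resolution 0.8 and 0.60 with up to 20% mitochondrial UMIs. Osteoblast-like cells gave 18.6% of the Mmp9 difference, 10.6% without mutant pup 5 and 31.9% without mutant pup 3.

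Hypertrophic-like chondrocytes (370 cells), the cells best known for collagenase at the end of the growth plate, held 8.54% of the Mmp13 UMIs. Their level was 10.8 and 262 CPM in WT and 615, 279 and 407 CPM in the mutants, every mutant above both WT pups but WT pup 1 far below WT pup 2. Of their 3631 UMIs 97.1% sat in 26 cells, a sub-cluster led by Spp1, Col10a1 and Dmp1 with 2 and 6 cells in WT and 12, 4 and 2 in the mutants. Its level was 29.3 and 5978 CPM in WT and 9726, 5693 and 6274 CPM in the mutants, which puts pup 4 below WT pup 2. Col10a1 was at 63447 CPM and Spp1 at 27492 CPM there, and Mmp9 at 187 CPM. In WT pup 1 the whole class held 15 UMIs, 1 of them in the 2 cells of the sub-cluster. Without WT replicate 2 the log2 ratio over the whole class (5 CPM added) rose from 1.63 to 4.79. The class gave 11% of the Mmp13 difference between genotypes, 6.84% without WT pup 1 and 2.85% without mutant pup 3.

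Perichondrial-like cells (6213 cells), which form the fibrous sheath of the cartilage, held 7.93% of the Mmp13 UMIs at 93.9 and 56.0 CPM in WT and 62.8, 93.3 and 184 CPM in the mutants, with overlap. They gave 7.08% of the difference between genotypes, 4.16% without WT pup 2, 10.9% without WT pup 1 and 12.1% without mutant pup 3. A set of 3 unnamed clusters held most of the remainder. A cluster of 333 cells led by the heat-shock genes Hspa1b and Hsph1 was at 379 and 3875 CPM in WT and 26.5, 2721 and 3357 CPM in the mutants, without an order by genotype. It gave 8.17% of the difference, 0.953% without mutant pup 4, 5.18% without WT pup 1 and 20.8% without mutant pup 3. One of 273 cells led by Spp1 and Clstn2 was at 334 and 1121 CPM against 872, 615 and 1150 CPM. One of 139 cells led by Ostn and Npnt was at 306 and 302 CPM against 726, 1245 and 1827 CPM, and there no mutant value reached down to WT. It gave 7.92% of the difference, 5.15% without mutant pup 5. The chondrocyte classes other than hypertrophic-like cells were at 2.86 to 6.53 CPM of Mmp13 pooled, against 21.3 CPM in erythroid-like cells. The erythroid-like level varied widely, at 1.72 and 32.7 CPM in WT and 44.5, 45.6 and 0 CPM in the mutants, and in WT pup 1 and mutant pup 5 some or all of these chondrocyte classes were above it.

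Stray RNA sets a floor for all of these shares. After every cell was thinned to 2000 UMIs, 1.15% of erythroid-like and lymphoid-like cells (785 cells, median 7344 UMIs before thinning), which should lack both genes, had a UMI of Mmp13 and 0% one of Mmp9. In the Sstr2 Cemip cluster 90.2% of cells had one of Mmp13 (95.1% unthinned) and 73.2% one of Mmp9 (82.9% unthinned). For Mmp13 the share was 22.0% in osteoblast-like cells (32.4% unthinned), 5.95% in hypertrophic-like chondrocytes (10% unthinned) and 3.93% in perichondrial-like cells (5.75% unthinned). For Mmp9 it was 58.1% in osteoclast-like cells (65.1% unthinned), 36.2% in granulocyte-like cells (46.5% unthinned) and 2.07% in osteoblast-like cells.

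Mmp9 had further sources with little or no Mmp13. Osteoclast-like cells (43 cells; Ctsk at 7305 and Acp5 at 1117 CPM) held 19.2% of the Mmp9 UMIs, at 6081 and 923 CPM in WT and 6621, 8228 and 5792 CPM in the mutants. WT pup 2, with 5 such cells, was the low one, and WT pup 1 lay within the mutant range. Their part of the all-cell level was 6.60 and 0.380 CPM in WT against 8.86, 6.41 and 9.82 CPM, or 26.6% of the difference, a share that was 9.55% without WT pup 2 and 44.0% without WT pup 1. With WT replicate 1 left out the log2 ratio in the class (5 CPM added) rose from 0.97 to 2.89. Their share of cells was 0.0529% and 0.0302% in WT and 0.0679%, 0.0391% and 0.0724% in the mutants (exact permutation test, p = 0.3, adjusted p = 0.667). With the Sstr2 Cemip cluster and the osteoclast-like cells both left out, Mmp9 was 5.20 and 3.18 CPM in WT and 5.31, 3.70 and 8.74 CPM in the mutants, a 1.41-fold ratio with overlap.

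Granulocyte-like cells, whose granules store gelatinase, held 5.00% of the Mmp9 UMIs and counted against the difference (-8.14% of it, and -12.5% without mutant pup 3 or -5.08% without mutant pup 4). They were fewer in the mutant libraries, with 201 and 117 cells in WT and 83, 26 and 31 in the mutants. Per cell they were not lower as a group, at 223 and 422 CPM in WT and 440, 173 and 685 CPM in the mutants. One sub-cluster of 240 cells carried most of it, at 882 CPM with a UMI in 87.5% of its cells.

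Cells rich in both transcripts were counted beside those rich in only 1. The cutoffs leave out cells in between, and some classes had cells on both sides. A total of 51 cells had at least 10 UMIs of each gene, and 29 of them were in the Sstr2 Cemip cluster, 12 were osteoblast-like and 4 hypertrophic-like. By pup there were 4 and 9 in WT and 19, 9 and 10 in the mutants, so that the lowest mutant equalled the higher WT pup. At 50 UMIs of each gene 27 cells remained, 21 in the cluster and 6 osteoblast-like. By contrast 68 cells had at least 10 Mmp9 UMIs and fewer than 5 of Mmp13, of which 39 were granulocyte-like and 23 osteoclast-like, and none was in the cluster. In the other direction 440 cells had at least 10 Mmp13 UMIs and fewer than 5 of Mmp9, of which 145 were osteoblast-like and 7 belonged to the Sstr2 Cemip cluster.

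**Figure D3:**
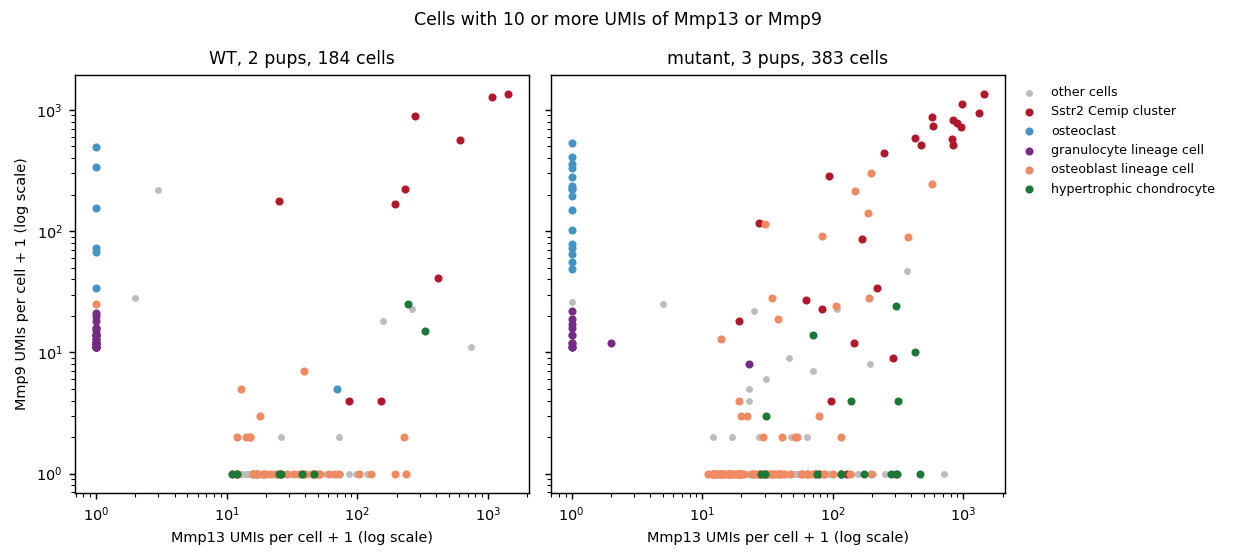
UMIs of Mmp13 (horizontal axis) and Mmp9 (vertical axis) in each cell with at least 10 UMIs of either gene, on log scales, for the WT pups (184 cells) and the mutant pups (383 cells), coloured by class. Most cells of the Sstr2 Cemip cluster lie at the upper right, with 7 at 50 or more Mmp13 UMIs and fewer than 5 of Mmp9, osteoclast-like and granulocyte-like cells along the Mmp9 axis, and osteoblast-like cells mostly along the Mmp13 axis.

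Across the 74 clusters and sub-clusters the gene most like Mmp13 was Podnl1 (Pearson r of log2(CPM + 5) = 0.82), followed by Spp1 (0.76), Ibsp (0.74) and Cp (0.73). For Mmp9 the nearest was Mmp13 itself (0.68), then 4833422C13Rik (0.65), C6 (0.64), Wdr72 (0.63) and Gdpd2 (0.62). Without the Sstr2 Cemip cluster the value for Podnl1 was 0.77 and that between Mmp9 and Mmp13 0.57, while C6, Wdr72 and Gdpd2 fell to 0.25 to 0.29. These points share libraries and come from the same cells, and the values are descriptions. Among the tandem neighbours of Mmp13 on chromosome 9, Mmp10 was also higher in the cluster, at 153 CPM against 0.748 CPM over all cells, with 84 of its 556 UMIs (15.1%) in 9 of the 41 cells. The cluster held none of the 6863 Mmp3 and none of the 3135 Mmp8 UMIs.

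**Figure D4:**
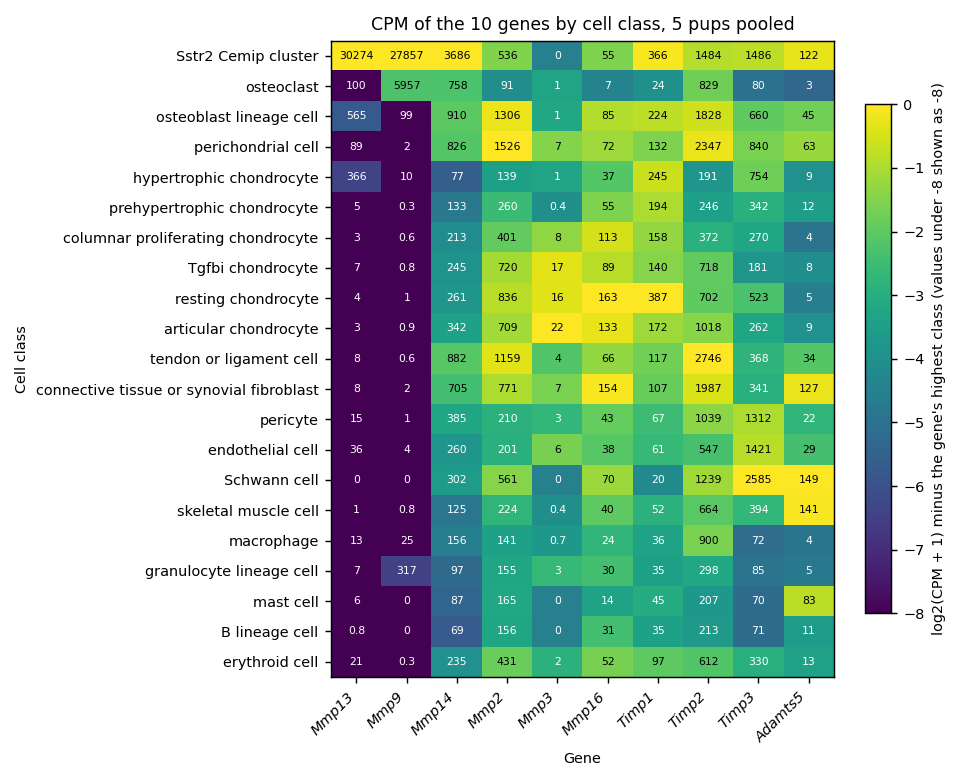
Level of each of the 10 genes (columns) in 21 classes of cells (rows), from UMIs pooled over the 5 pups, with the CPM printed in each square and the colour giving log2(CPM + 1) minus that of the gene's highest class, down to the lower end of the scale. Mmp13 and Mmp9 are high in few rows, while Mmp14, Mmp2, Timp2 and Timp3 are above 50 CPM in all 21. These include rows of blood cells, where the level may be stray RNA.

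Of the other 8 genes all but Mmp3 and Adamts5 were widespread, though values in erythroid-like and lymphoid-like cells may be stray RNA. Rankings here and below are among the named classes and the Sstr2 Cemip cluster, with the other unnamed clusters left out. Mmp14, a membrane-bound collagenase that also activates the proenzyme of Mmp2, was highest in the Sstr2 Cemip cluster. Its level there was 5510 and 3986 CPM in WT and 2609, 4588 and 4986 CPM in the mutants, above every pup's value in the next named class. Among the named classes osteoblast-like cells (910 CPM pooled), tendon-like cells (882), perichondrial-like cells (826) and osteoclast-like cells (758) followed, and their values by pup overlapped. In hypertrophic-like chondrocytes Mmp14 was 76.6 CPM, below the 235 CPM of erythroid-like cells and above the 69.5 CPM of B lineage-like cells. Over the class it was not told apart from background, although it was 386 CPM in the 26-cell sub-cluster that held most of the class's Mmp13. Mmp2, gelatinase A, was highest of the named classes in perichondrial-like cells. Their level was 1323 and 1645 CPM in WT and 1840, 1393 and 1200 CPM in the mutants. This overlapped osteoblast-like cells (1306 CPM pooled) and tendon-like cells (1159 CPM). Mmp16, another membrane-bound protease, led of the named classes in resting-like chondrocytes. Their level was 158 and 144 CPM in WT and 160, 174 and 181 CPM in the mutants, with connective tissue-like cells next (154 CPM pooled) and overlapping.

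Mmp3, a stromelysin with a broad range of matrix substrates, was scarce, with 2.25% of cells holding a UMI. Of the named classes it was highest in articular-like chondrocytes (22.0 CPM pooled), Tgfbi-like chondrocytes (17.5) and resting-like chondrocytes (16.5), whose ranges overlapped. In Tgfbi-like chondrocytes the pups differed widely, from 1.37 to 39.5 CPM within the WT pair. The UMIs there came mostly from 1 of 3 clusters, at 95.1 CPM pooled, which held 262 and 9 cells in WT and 10, 259 and 173 in the mutants. Adamts5, the main aggrecanase of mouse cartilage, was not highest in chondrocytes. With the other unnamed clusters left out, it led in Schwann-like cells (149 CPM pooled), muscle-like cells (141), connective tissue-like cells (127) and the Sstr2 Cemip cluster (122), which overlapped. It stood at 3.96 CPM in columnar-like chondrocytes, where 0.654% of thinned cells had a UMI against 2.29% of erythroid-like and lymphoid-like cells.

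The inhibitors were again ranked among the named classes and the Sstr2 Cemip cluster only. Timp1, a secreted inhibitor of most soluble metalloproteinases, was highest in resting-like chondrocytes (387 CPM pooled) and the Sstr2 Cemip cluster (366 CPM), which overlapped, then in hypertrophic-like chondrocytes (245 CPM). Timp2 also takes part in the activation of Mmp2 by Mmp14. Ranked in the same way it was highest in tendon-like cells (2746 CPM), perichondrial-like cells (2347) and connective tissue-like cells (1987), with overlap between neighbours in that order. It was lowest in hypertrophic-like chondrocytes at 191 CPM. Timp3, an inhibitor bound to the matrix that also blocks aggrecanases, led among the same classes in Schwann-like cells. Its level there was 3187 and 2858 CPM in WT and 2565, 1180 and 3442 CPM in the mutants. The Sstr2 Cemip cluster (1486 CPM), endothelial-like cells (1421) and pericyte-like cells (1312) were next, all of them overlapping. The Sstr2 Cemip cluster thus held all 3 inhibitors at 366 to 1486 CPM beside Mmp13 at 30274 and Mmp9 at 27857 CPM, all relative to the UMIs of the cluster and not to transcript length. Timp1, Timp2 and Timp3 each overlap another protein-coding gene (Syn1, Cep295nl and Syn3). Only Cep295nl lies on the same strand as its partner, Timp2, so a few Timp2 UMIs may be shared. Whether the counting kept the strands apart for the others was not checked.

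None of these 8 genes passed the test between genotypes. The test was edgeR's quasi-likelihood test on UMI sums per pup, with Benjamini-Hochberg adjustment over all genes at 0.05, over all cells and in each of the 14 classes with at least 30 cells in every pup. Over all cells 0 of the 8 were called, where 0% of all genes were, and 1 of the 8 (Timp3) had an unadjusted p under 0.05, against 1169 of 21024 genes. Within classes 0 of 105 tests were called, against 0.00663% of all gene-by-class tests, and 16 (15.2%) had an unadjusted p under 0.05 against 5.5% of all tests. Of those 16, 14 (13.3% of the 105) were higher in the mutants, against 2.79% of all tests, and 2 were lower, against 2.71%. In 18 of the 105 (17.1%) every mutant pup was above both WT pups (7.38% of all tests) and in 7 (6.67%) every mutant was below (14.7% of all tests). The median log2 difference over the 105 was 0.17, after TMM scaling had brought the median of all genes over all cells from -0.12 to -0.02. The 8 genes share cells and pups, so these are not independent tests. They were also chosen with earlier results of these data known, so nothing is read from their shares against those of all tests.

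Timp3 made up 6 of the 16. Over all cells it was at 350 and 449 CPM in WT and 497, 412 and 487 CPM in the mutants, a log2 difference of 0.32 (SE 0.11, edgeR adjusted p = 0.84). In pericyte-like cells it was at 1166 and 1053 CPM in WT and 1545, 1823 and 2151 CPM in the mutants, with no overlap (log2 difference 0.72, SE 0.17, edgeR adjusted p = 0.26). The class pools 2 clusters whose mix moved with the groups, and the one led by Rgs5, with the higher Timp3 (2048 against 764 CPM pooled), made up 42.1% and 30.6% of it in WT and 53.6%, 72.9% and 66.7% in the mutants. Within that cluster Timp3 was at 1799 and 1864 CPM in WT and 2210, 2035 and 2949 CPM in the mutants, and within the one led by Myh11 at 685 and 719 CPM against 826, 1285 and 765 CPM, so the groups were apart in both but by as little as 719 against 765 CPM. In osteoblast-like cells it was at 439 and 535 CPM against 649, 780 and 1047 CPM, again with no overlap (0.79, SE 0.20, edgeR adjusted p = 0.81). Here too the makeup differed. The cluster led by Stra6, highest in Timp3 at 960 CPM pooled, was 12.8% and 20.8% of the class in WT and 24.8%, 34.6% and 31.4% in the mutants, and in 2 of the 5 clusters of the class every mutant lay above both WT pups. Perichondrial-like cells were at 602 and 791 CPM against 1019, 814 and 922 CPM (0.47, SE 0.14, edgeR adjusted p = 0.68), and resting-like chondrocytes at 469 and 442 CPM against 515, 514 and 689 CPM (0.41, SE 0.15, edgeR adjusted p = 0.42). Taken cluster by cluster, the mutants were all above WT in 0 of the 6 clusters of perichondrial-like cells and in 2 of the 6 of resting-like chondrocytes. The share of all genes with such a pattern within clusters was not computed, so nothing is read from these cluster counts. Tendon-like cells overlapped, with pup 4 at 328 CPM below both WT pups at 334 and 366 CPM. In macrophage-like cells the level was 53.7 to 117 CPM by pup and 71.8 CPM pooled. Erythroid-like cells were at 330 CPM pooled and B lineage-like cells at 71.0 CPM, so the macrophage-like level was not told apart from background. The log2 difference was positive in 11 of 14 classes, where the medians of all genes lay from -0.016 to 0.0023.

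Mmp3 in resting-like chondrocytes was at 11.8 and 8.90 CPM in WT and 17.1, 22.9 and 24.0 CPM in the mutants, with no overlap (log2 difference 1.12, SE 0.21, edgeR adjusted p = 0.16). After thinning 1.36% of these cells had a Mmp3 UMI, against 0.510% of erythroid-like and lymphoid-like cells. In 3 of the 6 clusters of the class every mutant was above both WT pups, and in the one led by Shisa3 every mutant was below both, at 11.4 and 17.3 CPM in WT against 3.97, 9.99 and 4.63 CPM. As for Timp3, no share over all genes was computed for such cluster counts. The mix moved too, since the cluster led by Arc, lowest in Mmp3 at 3.00 CPM pooled, was 11.4% and 17.2% of the class in WT and 4.32%, 0.679% and 1.55% in the mutants. That cluster scored highest for columnar (1.33) and Tgfbi (1.10) chondrocyte markers and took the resting-like name under the rule's score margin, as did 3 others of the 6. DESeq2 called this difference (1.14, adjusted p = 0.000152) and it was the 1 call of that tool among the members, where 0.099% of all tests were called. Over all cells the pups overlapped, at 10.1 and 5.23 CPM in WT and 6.73, 12.5 and 13.5 CPM in the mutants.

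**Figure D5:**
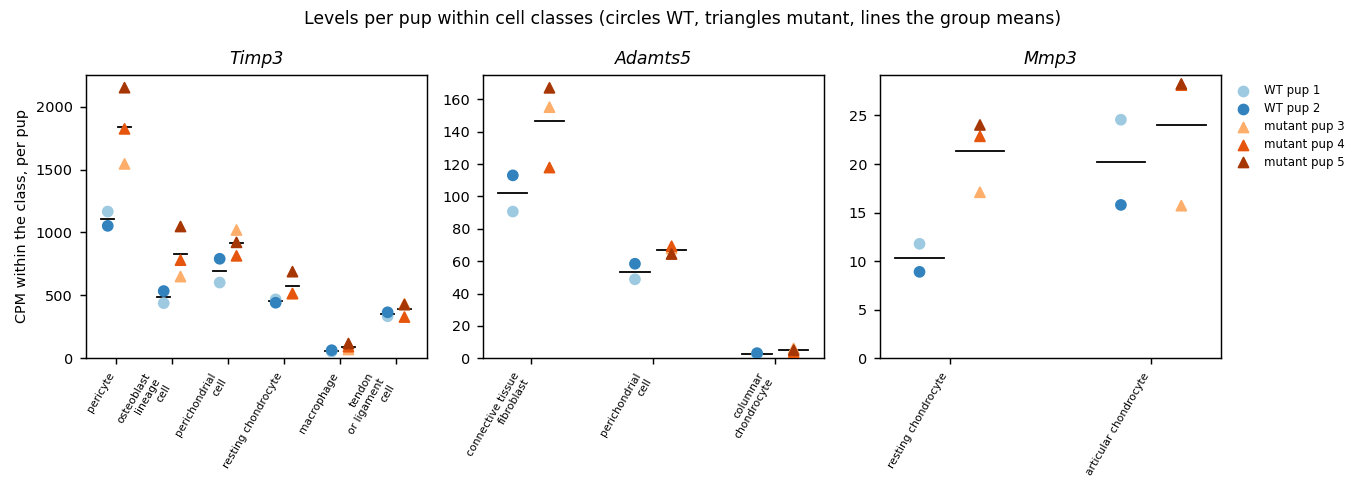
CPM of Timp3, Adamts5 and Mmp3 in each pup (points, WT and mutant side by side), in the classes where their levels are described. In pericyte-like and osteoblast-like cells the 3 mutant points for Timp3 lie above both WT points, and in resting-like chondrocytes those for Mmp3 do, though none of these differences passed the edgeR threshold.

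Adamts5 in connective tissue-like cells was at 90.6 and 113 CPM in WT and 155, 118 and 167 CPM in the mutants, with no overlap (log2 difference 0.55, SE 0.15, edgeR adjusted p = 0.98), and the same held in 3 of the 5 clusters of the class. In perichondrial-like cells it was at 48.8 and 58.4 CPM against 67.8, 69.2 and 64.4 CPM (0.41, SE 0.12, edgeR adjusted p = 0.68), with every mutant above WT in 2 of its 6 clusters. For these cluster counts too no share over all genes was computed. The third Adamts5 value with an unadjusted p under 0.05 was in columnar-like chondrocytes, where it was not told apart from background. Over all cells Adamts5 was at 14.8 and 24.7 CPM in WT and 34.5, 23.1 and 15.5 CPM in the mutants, fully overlapping.

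Timp2 leaned upward in 13 of 14 classes with a median log2 difference of 0.28, where the medians of all genes lay from -0.016 to 0.0023. In resting-like chondrocytes it was at 562 and 704 CPM in WT and 852, 779 and 672 CPM in the mutants, with pup 5 between the WT pups (0.36, edgeR adjusted p = 0.39). The other Timp2 value with an unadjusted p under 0.05, in hypertrophic-like chondrocytes, was at 141 to 251 CPM. It was below erythroid-like cells in every pup and so not told apart from background. Mmp14 in macrophage-like cells was at 153 and 134 CPM in WT and 161, 184 and 201 CPM in the mutants, against 119 and 351 CPM and 268, 290 and 200 CPM in erythroid-like cells, so it was not below them in every pup. Timp1 in hypertrophic-like chondrocytes was at 352 and 233 CPM in WT and 239, 192 and 223 CPM in the mutants, with overlap (-0.43, edgeR adjusted p = 1.00). Timp1, Mmp2 and Mmp14 had medians of 0.08, -0.03 and -0.13 over 14 classes. Mmp14 in perichondrial-like cells was at 898 and 968 CPM in WT and 880, 706 and 623 CPM in the mutants, every mutant below both WT pups (-0.26, SE 0.15, edgeR adjusted p = 0.72). Mmp16 over all cells was the only 1 of the 8 genes whose groups did not overlap there, at 99.7 and 95.3 CPM against 101, 102 and 116 CPM (0.22, SE 0.11, edgeR adjusted p = 0.84). Of all genes over all cells, 3.84% had every mutant pup above both WT pups. Mmp16 in connective tissue-like cells was at 131 and 148 CPM against 172, 149 and 160 CPM (0.23, edgeR adjusted p = 0.98). Mmp2 in endothelial-like cells was at 232 and 240 CPM against 158, 170 and 174 CPM (-0.48, SE 0.17, edgeR adjusted p = 0.83). A UMI was seen in 21.8% of these cells after thinning against 32.9% of erythroid-like and lymphoid-like cells, so the level was not told apart from background.

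Other choices called a few of the 8. Without the filter on low counts edgeR called 5 of the member tests, Timp3 in pericyte-like, osteoblast-like and perichondrial-like cells, Adamts5 in connective tissue-like cells and Mmp3 in endothelial-like cells (0 and 0 CPM in WT and 6.72, 34.3 and 0 CPM in the mutants), where it called 0.304% of all tests. With only the 3 pups that lacked Xist, which leaves 1 mutant, 2 were called, Timp3 in osteoblast-like cells (log2 difference 1.08) and Mmp3 in resting-like chondrocytes (1.31), where 0.177% of all tests were. The lone mutant is then assumed to vary as the WT pair does. With 1 pup left out edgeR called 0 of the member tests each time, while it called 0.0786% and 0.224% of all tests without WT pups 1 and 2 and 0.0155%, 0.00171% and 0.0575% without mutant pups 3, 4 and 5.

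The wider protease system was tested in the same fits, and edgeR called 0 genes of each list over all cells and within classes. The counts of unadjusted p under 0.05 that follow are set against the same 5.5% of all tests, and those higher in the mutants against 2.79%. Among 17 other matrix metalloproteinases 8 of 56 tests had an unadjusted p under 0.05, 3 of them higher in the mutants, and the median log2 difference was -0.05. Mmp8, the collagenase of neutrophils, was at 753 CPM in granulocyte-like cells, and over all cells at 9.13 and 4.35 CPM in WT and 3.26, 0.374 and 2.60 CPM in the mutants, below WT in each. Mmp23 reached 35.9 CPM in osteoblast-like cells. Of 3 other inhibitors, 3 of 26 tests had such a p (median -0.04). Among them were the membrane-anchored Reck and the plasma-type inhibitor A2m, highest of the named classes in resting-like chondrocytes at 104 and 157 CPM. Of 18 other ADAMTS genes 11 of 180 tests had such a p (median 0.07), with Adamts1 and Adamts12 highest of the named classes in pericyte-like cells at 1349 and 240 CPM.

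The plasminogen system (7 genes), whose product plasmin activates several metalloproteinases, had 13 of 67 tests with an unadjusted p under 0.05, all 13 higher in the mutants, and a median log2 difference of 0.26. Serpine2 over all cells was at 164 and 163 CPM in WT and 220, 166 and 188 CPM in the mutants (0.32, SE 0.11, edgeR adjusted p = 0.84). The list of activation and clearance genes (5 genes) had 17 of 70, all 17 higher, and a median of 0.24. It includes Bsg, an inducer of metalloproteinases, at 710 and 747 CPM in WT and 772, 996 and 972 CPM in the mutants over all cells (0.44, SE 0.17, edgeR adjusted p = 0.84), and Lrp1, a receptor that clears Mmp13 and Mmp9 from outside the cell, at 162 to 180 CPM in every pup. Of all tests 2.79% had an unadjusted p under 0.05 and were higher in the mutants. The tests of a list repeat its few genes over the same pups. The lists were chosen with earlier results of these data known, so nothing is read from these counts.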

How the data were processed

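The authors captured cells on BD Rhapsody cartridges, used a hosted pipeline that assigned barcodes and counted transcripts (genome mm10, per the labels; version not given in the sources used here) and deposited raw UMI counts per gene and cell, which were used as deposited. Cells with 200 to 6000 genes and at most 10% mitochondrial UMIs were kept, as in the study, which removed 1866 cells. The members and lists were chosen with earlier results of these data known.

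Cells were clustered without the members or list genes (3000 variable genes, 50 principal components, Leiden resolution 1.5). The values used were Pearson residuals of the UMI counts, computed and centred within each pup. Centring takes out each gene's mean difference between pups, and so between genotypes, before clustering. The 8 clusters that each held at least 5% of the Mmp13 or of the Mmp9 UMIs were pooled and clustered again, so these 2 genes decided where cells were split more finely. A cluster was named from fixed markers only with a score of at least 0.8 and within 0.5 of the best, at least 3 detected markers (Col10a1 among them for hypertrophic-like cells) and no more markers of another class than of its own among its 10 leading genes. The margin of 0.5 let 7 of 60 named clusters take a name other than their best scorer, 4 of them resting-like (10324 of 17555 cells) and 1 hypertrophic-like (256 of 370 cells). Named genes are the members, the markers of the classes the results turn on, the 2 most abundant genes of each list and the 5 genes most like Mmp13 and Mmp9, and some genes that this rule names are not reported here. The Sstr2 Cemip cluster and sub-clusters were singled out, and levels within the clusters of a class added, after values were seen.

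CPM is UMIs of a gene per 1000000 UMIs of the pup or class. UMI sums per pup were tested with edgeR 4.0.16 (TMM, filterByExpr, quasi-likelihood, robust; R 4.3.3), which was tested on simulated data. SE is the log2 difference divided by the root of F. Shares of cells had a 2-sided exact permutation test over 10 groupings, adjusted over 5 classes. Each library held its own pup, so pups were the replicates. The edgeR p-values set the difference between groups against the spread within them, among 5 littermates. The permutation p-values place the difference among the 10 groupings of these pups. Scrublet, run in scanpy 1.11.5, set no working threshold in 3 pups, so no doublets were removed. Alternatives were Leiden resolutions of 0.8 and 2.5, no upper limit on genes, DESeq2 1.42.0, no filter on low counts, 4000 thinned UMIs, each pup left out and the pups without Xist. A limit of 20% mitochondrial UMIs, the removal of the 6% with the highest doublet scores and totals without the Sstr2 Cemip cluster were chosen after seeing the data. Gene positions are from GENCODE on GRCm38.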

Additional observations from a re-analysis of the deposited data

Results flagged for a closer look

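Cells removed for over 10% mitochondrial UMIs held 17.5% of the Mmp9 UMIs of mutant pup 3 and 25.1% of those of mutant pup 4, against 1.88% and 0.341% in the WT pups and 0.138% in mutant pup 5. These cells lie outside the comparisons of the report, and the shares stood above those of the WT pups. The osteoclast gene Acp5 moved with them, with 28.6% and 34.9% of its UMIs in such cells in pups 3 and 4 against at most 1.49% in the other pups. The upper limit on genes per cell removed 24.6% of the Mmp9 UMIs of WT pup 2. Before any filter Mmp9 was at 21.3 and 27.2 CPM in WT and 63.0, 42.7 and 37.0 CPM in the mutants, and Mmp13 at 28.7 and 42.2 CPM against 93.0, 62.3 and 68.6 CPM. Of 12 removed cells with at least 50 Mmp9 UMIs, 8 were over the mitochondrial limit, 10 held at least 3 of 9 osteoclast markers and 9 had fewer than 5 Mmp13 UMIs.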

How the results depend on the processing

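Of 415 values recomputed for 37 results, 372 kept their direction and their side of the threshold or stayed within their spread, 20 moved, 16 reversed and 7 passed the threshold. The cause was not tested for any of them. Over all cells the log2 differences were 1.05 to 1.39 for Mmp13 and 0.84 to 1.08 for Mmp9 when 1 pup was left out, but the choice of these genes fixed their direction, so this is no sign of stability. No paired analysis was possible because the replicate numbers are pup numbers and the WT and mutant groups share none. Leaving out a WT pup leaves 1, which edgeR takes to vary like the mutants.

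With the highest doublet scores removed, osteoclast-like cells held 3.72% of the Mmp9 UMIs (19.2% before). The share of the Mmp13 difference in the Sstr2 Cemip cluster (39.3%) was 50.4% with up to 20% mitochondrial UMIs, 18.1% with only the pups without Xist and 31.8% to 47.9% with 1 pup left out, and that of Mmp9 (64.0%) was 31.9% without the Xist pups and 40.9% to 86.6%. The log2 ratios below have 5 CPM added to each mean. That of Mmp13 in osteoblast-like cells (0.55) was -0.55 at resolution 0.8, -0.0902 with no upper limit on genes, -0.16 with up to 20% mitochondrial UMIs and -0.32 to 0.95 with 1 pup left out, the lowest without mutant pup 5. In perichondrial-like cells (0.57) it was 1.53 at resolution 0.8, 1.40 with no upper limit on genes, 1.24 with only the pups without Xist and 0.05 to 0.96 with 1 pup left out. In hypertrophic-like chondrocytes (1.63) it was 0.72 to 4.79.

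The log2 ratio of Mmp9 in the Sstr2 Cemip cluster (0.38) was -0.0101 with up to 20% mitochondrial UMIs and 0.10 to 0.64 with 1 pup left out, in osteoclast-like cells (0.97) 0.18 to 2.89, and in granulocyte-like cells (0.42) -0.0722 to 0.94, the lowest without mutant pup 5. In osteoblast-like cells (4.08) it was 0.51 at resolution 0.8, 0.60 with up to 20% mitochondrial UMIs and 2.67 to 4.56 with 1 pup left out.

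Calls among the 8 other members (0) numbered 5 without the filter on low counts, 1 by DESeq2, 2 with only the pups without Xist and 0 to 0 with 1 pup left out. The log2 differences called there were 0.69, 0.79 and 0.48 for Timp3 in pericyte-like, osteoblast-like and perichondrial-like cells and 0.54 for Adamts5 in connective tissue-like cells without the filter, 1.14 for Mmp3 in resting-like chondrocytes by DESeq2, and 1.08 and 1.31 for Timp3 in osteoblast-like cells and Mmp3 in resting-like chondrocytes with only the pups without Xist. Calls among the list genes (0) numbered 9 without the filter and 0 to 2 with 1 pup left out, with 2 (Plau in columnar-like chondrocytes and Plat in pericyte-like cells) without WT replicate 1, where 0.0786% of all tests were called, and 1 (Adamts8 in pericyte-like cells) without mutant replicate 3, where 0.0155% were. Over the fits with 1 pup left out the share called ran from 0.00171% to 0.224%.

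The mutant minus WT share of cells in percentage points turned for the Sstr2 Cemip cluster (0.0254) to -0.00962 with only the pups without Xist, and ranged from -0.0037 to 0.0429 with 1 pup left out. For hypertrophic-like chondrocytes (0.0115) it was -0.0759 with no upper limit on genes, -0.0103 with up to 20% mitochondrial UMIs, -0.0196 without the highest doublet scores, -0.159 with only the pups without Xist, and -0.112 to 0.128 with 1 pup left out. With only the pups without Xist it was -0.204 in osteoblast-like cells (0.590) and -0.417 in perichondrial-like cells (2.35). With 41 to 57 cells in the Sstr2 Cemip cluster under each setting, 39 to 41 of them shared, counts of such cells limit every value drawn from it.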
